A study of Rattus norvegicus with 21 samples.

Results

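The 8 genes described here, Ackr3, Gadd45g, Igfbp4, Kdelr2, Nans, Pigs, Cd320 and Ddah2, had high values in hippocampal GABAergic neurons given medium conditioned by oligodendrocytes (OCM), relative to purified neurons without it or to neurons grown with glia. They are 8 of 16245 gene symbols in the deposited table, matched by symbol, and each has 1 row. Their values in the groups compared below are what chose them: Gadd45g, Igfbp4, Kdelr2, Nans and Pigs were among the genes with the largest differences between OCM-treated and purified cells, and Ackr3, Cd320 and Ddah2 among those with the largest differences between OCM-treated and glia-cultured cells. Their differences are therefore descriptions and no test is attached to them.

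The study asked how factors secreted by oligodendrocytes act on hippocampal GABAergic neurons, and sequenced the contents of 21 single neurons aspirated after patch-clamp recording. All neurons came from Wistar rat embryos of embryonic day 18 with the VGAT-Venus transgene, which marks GABAergic neurons with a fluorescent protein, and all were taken after 17 days in vitro. There were 5 GABAergic neurons from purified cultures with OCM, 5 GABAergic neurons from purified cultures without it, 6 GABAergic neurons grown with glia and 5 pyramidal neurons from cultures with glia. Both purified groups had received antimitotic agents (FdU and U, 5 µM) from 24 h after dissection, which were removed after 36 h, and the labels describe none for the cultures with glia. OCM came from oligodendrocytes of the cortex of Wistar rats at postnatal day 2, kept for 7 to 15 days before shaking, and was added on day 3 in vitro. Neither animals nor cultures are named in the labels, so each group counts as 1 sample and no p-value appears. An SD here is the spread over single cells.

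As background, 3 of these genes serve the secretory pathway. Kdelr2 is a receptor that returns escaped endoplasmic reticulum proteins from the Golgi by their KDEL-type ends, Nans makes the phosphorylated precursor of sialic acid, the sugar that caps many glycans of the neuronal surface, and Pigs is a subunit of the transamidase that attaches glycosylphosphatidylinositol (GPI) anchors to proteins. A further 3 act at or outside the cell surface. Igfbp4 is a secreted protein that binds insulin-like growth factors, Ackr3 is an atypical receptor that takes up the chemokine CXCL12 and takes part in interneuron migration, and Cd320 is the receptor that brings in cobalamin bound to transcobalamin. Gadd45g is a small stress- and activity-induced nuclear protein that binds PCNA and the kinase MAP3K4. Ddah2 belongs to the dimethylarginine dimethylaminohydrolases, which are known for the breakdown of methylated arginines that inhibit nitric oxide synthase.

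The 250 bases before the annotated start are shown for 4 of the genes, because 3 of them share a TATA box and Nans stands for those without one. Windows for 6 of the 8 symbols were found in RefSeq's table for the build GRCr8. TATA boxes (TATAAA) and CCAAT boxes (CCAAT, written ATTGG where they lie on the other strand) are in capitals, and coordinates are in GRCr8.
Ackr3, chr9:98247104-98247353, plus strand: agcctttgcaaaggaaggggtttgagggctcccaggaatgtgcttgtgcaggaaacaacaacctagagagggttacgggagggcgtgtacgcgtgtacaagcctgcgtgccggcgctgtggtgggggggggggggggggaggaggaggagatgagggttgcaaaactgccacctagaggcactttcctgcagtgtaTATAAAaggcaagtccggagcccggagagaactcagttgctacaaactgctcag
Gadd45g, chr17:13530352-13530601, minus strand: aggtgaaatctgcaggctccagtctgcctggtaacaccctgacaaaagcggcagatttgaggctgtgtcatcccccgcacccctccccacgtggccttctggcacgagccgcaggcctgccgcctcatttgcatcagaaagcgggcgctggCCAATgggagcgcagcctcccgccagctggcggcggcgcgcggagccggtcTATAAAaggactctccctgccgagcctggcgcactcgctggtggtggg
Igfbp4, chr10:84491221-84491470, plus strand: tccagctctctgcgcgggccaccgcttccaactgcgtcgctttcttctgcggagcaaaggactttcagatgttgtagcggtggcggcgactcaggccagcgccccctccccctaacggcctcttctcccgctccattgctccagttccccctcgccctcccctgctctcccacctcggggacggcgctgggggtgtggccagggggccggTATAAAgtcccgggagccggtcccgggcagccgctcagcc
Nans, chr5:65575774-65576023, plus strand: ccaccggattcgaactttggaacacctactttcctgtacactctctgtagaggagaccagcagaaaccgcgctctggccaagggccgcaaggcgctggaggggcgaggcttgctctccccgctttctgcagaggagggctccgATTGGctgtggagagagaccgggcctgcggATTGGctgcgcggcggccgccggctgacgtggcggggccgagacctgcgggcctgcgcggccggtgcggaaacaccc

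TATAAA, searched on both strands, began 54 bases before the start in Ackr3, 48 in Gadd45g and 40 in Igfbp4, and 12.9% of all 33469 windows of this length hold it. CCAAT was in the windows of Gadd45g, Nans and Pigs, and in 34% of all windows. GGGCGG, the GC box, was found in Pigs (30.5% of all windows) and CACGTG, an E-box, in Gadd45g (5.59%). TGACGTCA, the cyclic AMP response element, and the endoplasmic reticulum stress response element had no match in the 6 windows, and 1.59% and 0.0657% of all windows hold them. No motif overlapped another in these 6 windows. These matches describe letters only.

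The labels were checked against defining markers before the genes were read. Gad1, Slc32a1 or both were above 0 in all 16 GABAergic cells and both were at 0 in the 5 pyramidal cells, and Slc17a7 was above 0 in 4 of the 5 pyramidal cells and at 0 in all GABAergic ones. Pyramidal cells 3 and 4 carried many oligodendrocyte transcripts, with summed markers of 324915 and 103570, against at most 1840.1 in any other cell. Pyramidal cell 3 had no Slc17a7. Over the 5 pyramidal cells the summed astrocyte markers were 789 to 64041 and those of microglia 0 to 26818. In OCM cells the summed oligodendrocyte markers were 0 to 9.16 (8 of 10 markers at 0 in every cell), those of astrocytes 0 to 1226 and those of microglia 0 to 0.509. The corresponding ranges were 0 to 857, 0 to 1538 and 0 to 106 in purified cells, and 0 to 1352, 169 to 3114 and 0 to 1.87 in glia-cultured GABAergic cells. Depth was 5730139 to 12967563 recovered reads in OCM cells, 2442814 to 7821375 in purified cells, 5587208 to 25160911 in glia-cultured GABAergic cells and 1817671 to 25160911 over all cells. Fewer genes were detected in purified cells (2573 to 4065 rows above 0) than in most OCM cells (3992 to 6331).

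**Figure D1:**
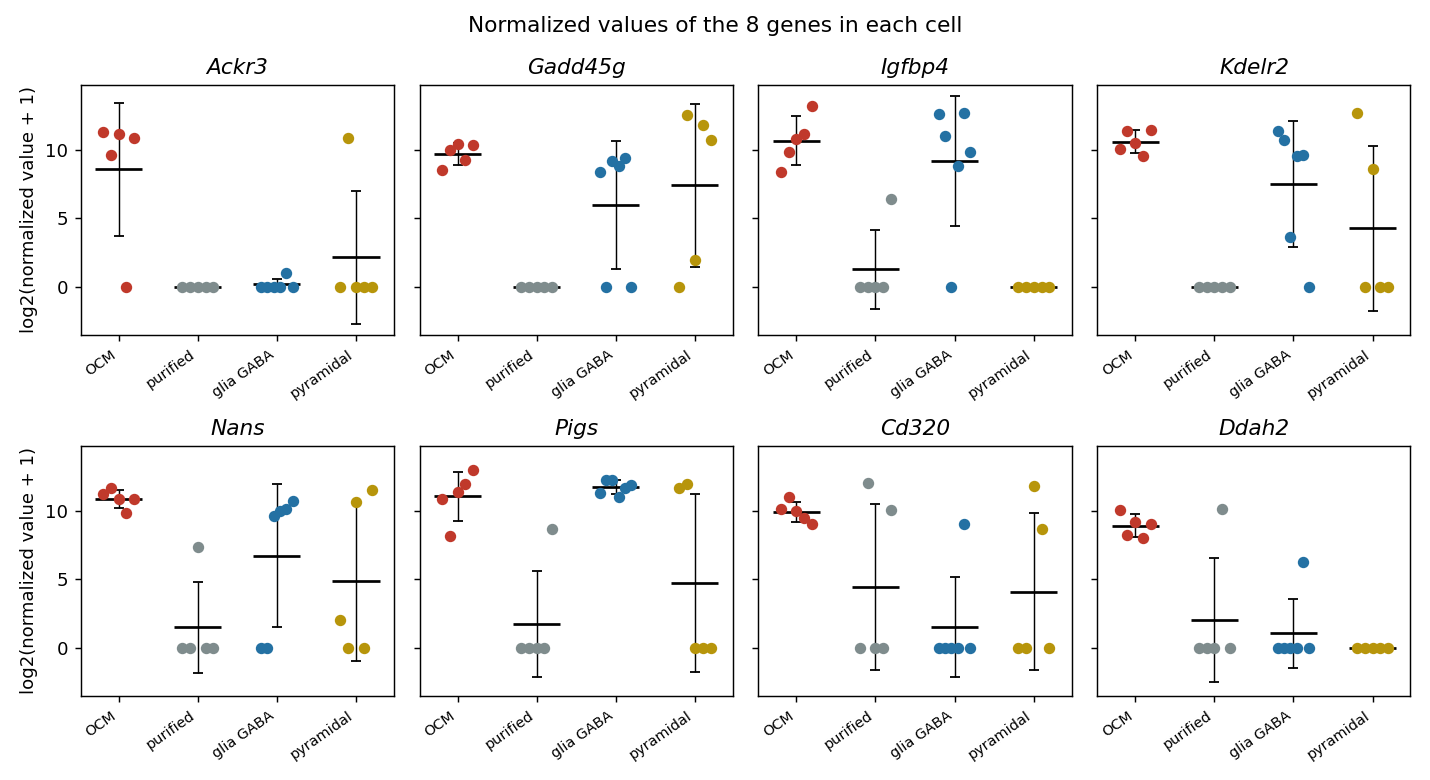
Values of the 8 genes in single cells of the 4 groups (points), as log2 of the normalized value plus 1, with the group mean (wide bar) and SD over cells (whiskers). Kdelr2 and Gadd45g were at 0 in all 5 purified cells and above 0 in all 5 OCM cells, and Cd320 and Ddah2 were above 0 in 1 of the 6 glia-cultured GABAergic cells.

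The 3 genes of the secretory pathway were above 0 in every OCM cell and mostly at 0 in purified cells. Kdelr2 (chromosome 12, 13192519 to 13210759 in rn6) had normalized values of 1062, 2685, 1481, 756 and 2820 in OCM cells 1 to 5 and 0 reads in all 5 purified cells. The groups did not overlap, and the mean of 1760.4 (SD 942, n = 5 cells) with OCM was at least 1070.2-fold above a floor of 3 reads over the purified group. Glia-cultured GABAergic cells spanned 0 to 2707 with a median of 772, and pyramidal cells 1 to 5 had 6762, 0, 384, 0 and 0. Both groups grown with glia overlapped the OCM cells, and the highest value of Kdelr2 was that of a pyramidal cell. Reads that are absent in 5 cells leave wide limits on how often the gene was on: 0 of 5 cells is compatible with a share of up to 52.2%, and 5 of 5 with a share down to 47.8% (exact binomial 95% limits, counting error only). These limits treat the cells as independent, although each group counts as 1 sample, and Kdelr2 was chosen on these values. Their coverage is therefore not assured, and they say nothing about other cultures.

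Nans (chromosome 5, 62109352 to 62126491) had 2397, 3199, 1816, 908 and 1816 in OCM cells and 0, 0, 164, 0 and 0 in purified cells. Every OCM cell lay above every purified cell, with means of 2027 (SD 844) with OCM and 32.9 (SD 73.6) without, a ratio of 61.6. Glia-cultured GABAergic cells spanned 0 to 1642 (median 885), with 4 of 6 above 0, and 4 of the 5 OCM cells exceeded the highest of them. Pyramidal cells had 2.96, 0, 1604, 0 and 2981.

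Pigs (chromosome 10, 65591638 to 65606174) had 1891, 287, 2689.8, 3906 and 7893 in OCM cells and 0, 0, 0, 0 and 412 in purified cells. The lowest OCM cell lay below the highest purified cell, so these groups overlapped by 1 cell on each side, while the means were 3333 (SD 2867) with OCM and 82.4 (SD 184) without. Pigs was the only one of the 8 above 0 in all 6 glia-cultured GABAergic cells, where it spanned 2018 to 4877 around a mean of 3533 (SD 1161). It was also the only one with a lower mean log2 value in OCM than in glia-cultured cells, by -0.65, a difference that became 0.073 without OCM cell 2. Pyramidal cells 1 and 2 had 3309 and 4010.4, and the other 3 had 0.

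**Figure D2:**
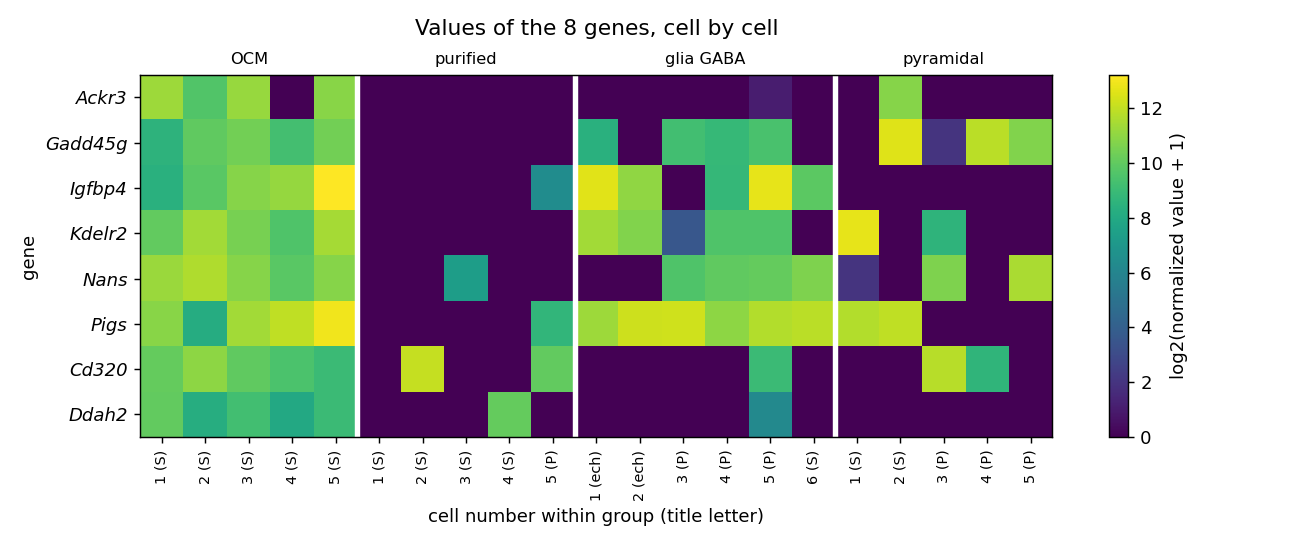
Log2 of the normalized value plus 1 for the 8 genes (vertical axis) in each of the 21 cells (horizontal axis, with the letters that open the sample titles). The OCM columns are filled except for Ackr3 in cell 4, purified cell 1 is at 0 for all 8 genes, and glia-cultured cell 5 is above 0 for all 8.

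Among the surface and secreted genes, Igfbp4 was high in OCM and glia-cultured GABAergic cells and at or near 0 in purified and pyramidal cells. Igfbp4 (chromosome 10, 86950555 to 86962562) had 332, 927, 1772, 2244 and 9532 in OCM cells and 0, 0, 0, 0 and 83.9 in purified cells. No purified cell reached the lowest OCM cell, and the means were 2961 (SD 3747) with OCM and 16.8 (SD 37.5) without, a ratio of 176. Its OCM cells spanned 28.7-fold between lowest and highest, the widest span of the 7 genes above 0 in all of them. Glia-cultured GABAergic cells spanned 0 to 6691 with a median of 1513 and 5 of 6 above 0, so they overlapped the OCM cells almost fully. All 5 pyramidal cells had 0 reads, which put the OCM mean at least 837-fold above the floor of that group.

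Ackr3 (chromosome 9, 97355924 to 97367445) was above 2 reads in OCM cells alone among the GABAergic neurons. It had 2483, 780.4, 2295, 0 and 1898 in OCM cells and 0 reads in all purified cells. The OCM cell at 0 makes the groups touch, and the OCM mean of 1491 (SD 1064) was at least 907-fold above the purified floor. In glia-cultured GABAergic cells 5 of 6 were at 0 and 1 had 2 reads, a value of 1.07. The ratio of the OCM mean to the glia-cultured mean was 8388, with a counting interval from 2322 to 69266 that reflects those 2 reads only. Pyramidal cell 2 had 1828 and the other pyramidal cells had 0, so the gene was not limited to OCM cells in the series.

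Cd320 (chromosome 7, 18700475 to 18706244) had 1099.5, 2027, 1005, 708 and 523 in OCM cells. Purified cells had 0, 4211, 0, 0 and 1052, which overlapped them, and the means of 1072 (SD 581) with OCM and 1053 (SD 1823) without had a ratio of 1.02. The log2 difference of 5.50 therefore rests on the cells above 0, 5 of 5 with OCM and 2 of 5 without. Of the glia-cultured GABAergic cells 5 had 0 and 1 had 509.9, just under the lowest OCM cell at 523. That narrow separation was lost when every cell was scaled to one total, where the values were 465 for the lowest OCM cell and 538 for the glia-cultured cell. Pyramidal cells had 0, 0, 3593, 399.7 and 0, and the 2 above 0 are the cells with the highest oligodendrocyte markers.

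Gadd45g (chromosome 17, 13391474 to 13393237) had 369, 1011, 1354, 609 and 1342 in OCM cells and 0 reads in all 5 purified cells. These groups did not overlap, and the OCM mean of 937 (SD 439.6, n = 5 cells) was at least 569.6-fold above the purified floor. Glia-cultured GABAergic cells spanned 0 to 692 with a median of 397, and 3 of the 5 OCM cells lay above all of them. Pyramidal cells had 0, 5992, 2.93, 3652 and 1692, so the gene's 3 highest values in the series were in pyramidal cells and the linear mean there, 2268, exceeded that of OCM cells. An unnamed row of the table (chromosome 17, 13391543 to 13391635) lies within this gene and was above 0 in 5 OCM, 0 purified, 4 glia-cultured GABAergic and 4 pyramidal cells. The sources used here do not give the strand setting of the counting, so reads of the 2 rows cannot be told apart.

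Ddah2 (chromosome 20, 5049505 to 5052573) had 1061, 304, 585, 249 and 521 in OCM cells. It was at 0 in 4 purified cells and at 1087 in purified cell 4, a value above every OCM cell. Means were 544 (SD 322) with OCM and 217 (SD 486) without. Only 1 of the 6 glia-cultured GABAergic cells was above 0, at 73.6, and all OCM cells lay above it, with a ratio of means of 44.3. All 5 pyramidal cells had 0 reads, at least 154-fold below the OCM mean.

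Across the 8 genes, the difference in group means of log2 of the value plus 1 was positive for 8 in OCM minus purified cells, 7 in OCM minus glia-cultured GABAergic cells and 8 in OCM minus pyramidal cells. It was positive for 70.0%, 36.0% and 67.6% of all genes compared, in the same order. Against purified cells the differences ran from 5.50 for Cd320 to 10.60 for Kdelr2, with a median of 9.36, while the 5143 genes that were above 0 in 3 or more of those cells had a median of 1.40. All 8 genes passed that filter in each comparison. Ackr3, Gadd45g and Kdelr2 passed it against purified cells through OCM cells alone, as did Igfbp4 and Ddah2 against pyramidal cells. Their positive differences there were fixed by the filter. Kdelr2 ranked 1 among the 5143, Gadd45g 7, Nans 12, Igfbp4 13 and Pigs 14, which is how they were chosen, while Ackr3 ranked 27, Ddah2 144 and Cd320 426. Against glia-cultured GABAergic cells the median of the 8 was 3.94, and that over 6772 genes was -0.72. There Ackr3 ranked 1, Cd320 2 and Ddah2 4, again by choice, and the other 5 ran from -0.65 for Pigs to 4.15 for Nans. Against pyramidal cells the median was 6.34, with 1.46 over 5397 genes, from 2.30 for Gadd45g to 10.68 for Igfbp4. The 3 comparisons share the OCM cells, so their values are not independent of each other.

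Lack of overlap was used as a stricter description, requiring the lowest OCM cell to exceed the highest cell of the other group. Against purified cells 4 of the 8 met it (Gadd45g, Igfbp4, Kdelr2 and Nans), where 0.817% of all genes did. Against glia-cultured GABAergic cells it was 2 (Cd320 and Ddah2), where 0.177% of all genes did. Against pyramidal cells it was 2 (Igfbp4 and Ddah2), where 1.98% of all genes did. The genes had been selected for high values in the first 2 comparisons, and the third uses the same OCM cells. Nothing is therefore read from these counts, nor from the counts that follow in this paragraph. A difference of at least 3 on the log2 scale was reached by all 8 against purified cells (28.8% of all genes), by 6 against glia-cultured GABAergic cells (5.4%) and by 7 against pyramidal cells (31.3%). Leaving out 1 cell at a time gave 4 to 5 genes without overlap against purified cells, 2 to 4 against glia-cultured cells and 2 to 3 against pyramidal cells. The shares of all genes were then 1.22% to 1.91%, 0.181% to 0.38% and 2.44% to 3.36%. OCM cell 4, the one without Ackr3, set the upper end against glia-cultured cells, where Ackr3 and Nans joined once it was left out.

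**Figure D3:**
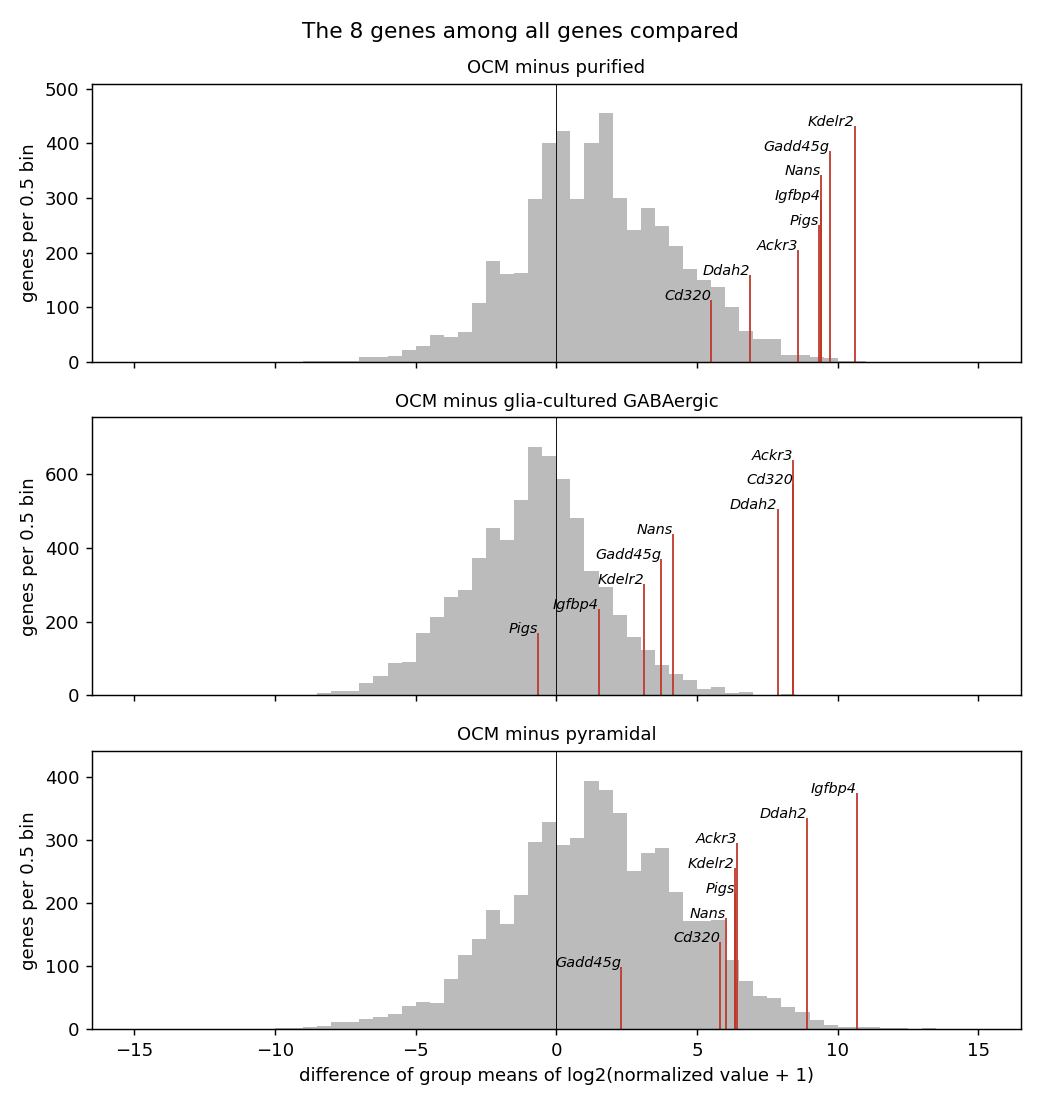
Numbers of genes (vertical axis, bins of 0.5) by difference of group means of log2 of the normalized value plus 1 (horizontal axis) in 3 comparisons, with the 8 genes marked in red. Against purified cells the 8 lie between 5.50 and 10.60, and against glia-cultured GABAergic cells Pigs lies at -0.65 and Ackr3 at 8.41.

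Since the genes were chosen for high values in OCM cells, their detection there was set by the choice and is given as a description. Of the 8 genes, 7 or 8 were above 0 in each OCM cell, 0 to 3 in each purified cell, 3 to 8 in each glia-cultured GABAergic cell and 2 to 4 in each pyramidal cell. In every OCM cell 7 of the 8 were above 0, as were 17.7% of the 7927 genes above 0 in at least 3 cells of the series. The glia-cultured cell with all 8 was cell 5, which had the most rows above 0 of any cell, 8652. After each cell was thinned to 1817671 reads, the counts were 7 to 8 with OCM, 0 to 3 in purified cells, 3 to 7 in glia-cultured GABAergic cells and 2 to 3 in pyramidal cells. The ranges of purified, glia-cultured and pyramidal cells overlapped one another at both depths. The range of OCM cells overlapped that of glia-cultured GABAergic cells at both depths as well.

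**Figure D4:**
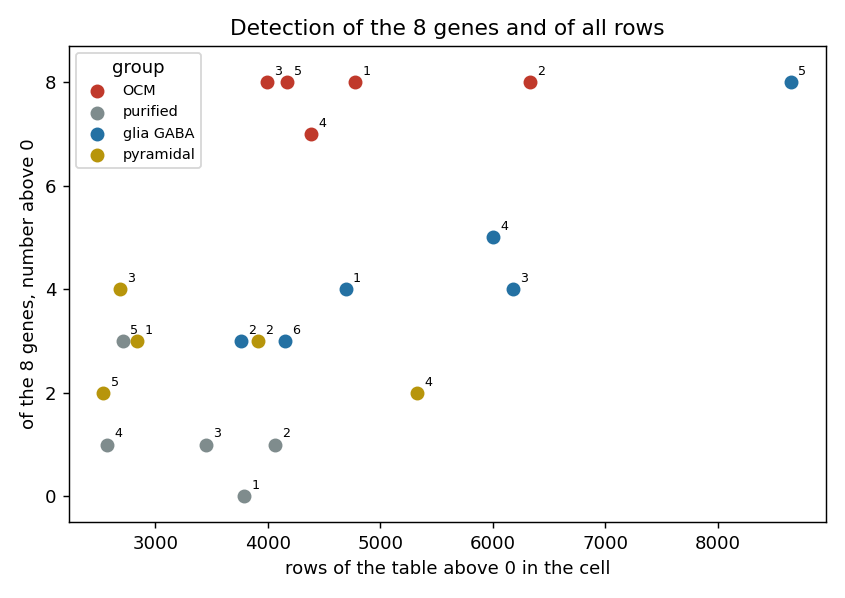
Number of the 8 genes above 0 (vertical axis) against the number of table rows above 0 (horizontal axis) in each cell, coloured by group and numbered within it. OCM cells have 7 or 8 of the genes at 3992 to 6331 rows, and purified cells have 0 to 3 at 2573 to 4065 rows.

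Interneuron subtype transcripts differed in level between the groups too. Sst was at 966 or more in every OCM cell and Npy at 7269.6 or more. In purified cells 1 to 5, Sst was at 2.47, 130.2, 0, 0 and 243977 and Npy at 0, 0, 3964, 0 and 185668. Both genes were picked after their values were seen. Cck, of the same 10 subtype markers, ran the other way, at 0 in all 5 OCM cells and at 19464 and 28143 in purified cells 1 and 2. Pvalb and Penk were likewise at 0 in every OCM cell but not in every purified cell, and Calb1 was the reverse. The summed subtype markers overlapped, at 8562 to 535322 in OCM cells, 13993 to 429889 in purified cells and 768 to 67663 in glia-cultured GABAergic cells. The purified cell with high Sst was cell 5, and it had 1052 for Cd320, 412 for Pigs, 83.9 for Igfbp4 and 0 for the other 5 genes. Glia-cultured cells 1 and 5, with Sst at 49864 and 21737, had the highest Igfbp4 of that group, 6293 and 6691. Among OCM cells the order differed, as cell 1 had the highest Sst, 325053, and the lowest Igfbp4, 332. All 5 OCM cells had titles that open with S, as had 4 of the 5 purified cells, 1 of the 6 glia-cultured GABAergic cells and 2 of the 5 pyramidal cells. The sources used here do not say what the letters stand for. Within cells titled S, 5 of the 8 genes did not overlap between the 5 OCM and 4 purified cells, where 1.51% of all genes did not, and the choice of the genes used this contrast. The part of subtype, detection and title letter in the differences was not tested.

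Among themselves the 8 genes varied together across the groups more than within them. Over the 21 cells, 27 of the 28 pairs had a positive Pearson correlation of log2 values, with a median of 0.35 and a highest value of 0.70 for Igfbp4 and Pigs. With group means taken off, 15 of 28 were positive, with a median of 0.013 and a range of -0.41 to 0.34. These correlations run across cells that share group and differ in depth, and the choice of the genes by group sets the first of them.

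Relatives and partners of the 8 genes, taken from 12 lists of families and pathways, were next set beside them. The lists hold 173 other genes of the table, and 80 of these were above 0 in enough cells to be compared between OCM and purified cells. Of the 80, 22 were higher by at least 3 on the log2 scale (27.5%) and 4 were lower by as much (5.00%), and over all genes these shares were 28.8% and 4.47%. The shares of the relatives were thus near those of all genes. None of the 80 was without overlap on the higher side, where 0.817% of all genes were, so nothing is read from that count. Against glia-cultured GABAergic cells, 3 of 105 were higher by at least 3 and 16 lower, that is 2.86% and 15.2%, with 5.4% and 18.2% over all genes.

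The paralogs of Kdelr2 had other patterns. Kdelr1 was at 1.16, 0, 417, 131 and 119 in OCM cells and at 0, 0, 617, 948 and 0 in purified cells, a log2 difference of 0.92 against 10.60 for Kdelr2. Kdelr3 was at 0 in all OCM and purified cells and at 10136.5 in pyramidal cell 3, the cell with the highest glial markers. Of 20 measured chaperones, folding enzymes and calcium-binding proteins of the secretory pathway lumen, not all of which have KDEL-type ends, 6 were higher with OCM than in purified cells by at least 3 and 0 were lower, with a median of 1.56. Over all genes 28.8% were higher and 4.47% lower by as much. Dnajc10 (4.50), a disulfide reductase, and Sdf4 (4.24), a calcium-binding protein that resides in the Golgi lumen, differed most, and Erp29 (-1.03), a chaperone, was lowest. The COPI coat and its Arf proteins, which carry the receptors back, had 1 of 15 higher by at least 3 (Gbf1, 3.61), 0 lower and a median of 1.42, with Arf4 lowest at -1.99. Unfolded protein response genes had 2 of 6 higher by at least 3 (Sel1l, 3.36, and Ddit3, 3.28) and 0 lower, with a median of 1.78 and Atf4 lowest at -0.60. The median over all genes was 1.40.

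For Nans and Pigs, the other steps of their pathways gave mixed directions. In the sialic acid list 0 of 5 other measured genes were higher with OCM than in purified cells by at least 3 and 1 was lower, Neu2, a sialidase, by -4.25. Cmas, which activates sialic acid for transfer, was above 0 in 5 OCM and 4 purified cells. Neu1, the lysosomal sialidase, had a difference of 2.91. Of the other transamidase subunits, Pigk, the catalytic one, was at 0, 788, 2489, 933 and 2647 in OCM cells and at 0, 0, 0, 0 and 1444 in purified cells, a difference of 6.33. Pigt was above 0 in all cells of both groups with a difference of -0.41. Among 7 other genes of GPI anchor synthesis and remodelling 2 were higher by at least 3 (Pigc, 4.70, and Pgap1, 3.45) and 1 lower (Pigp, -3.89). Over all genes 28.8% were higher and 4.47% lower by as much, so nothing is read from the counts of these lists.

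**Figure D5:**
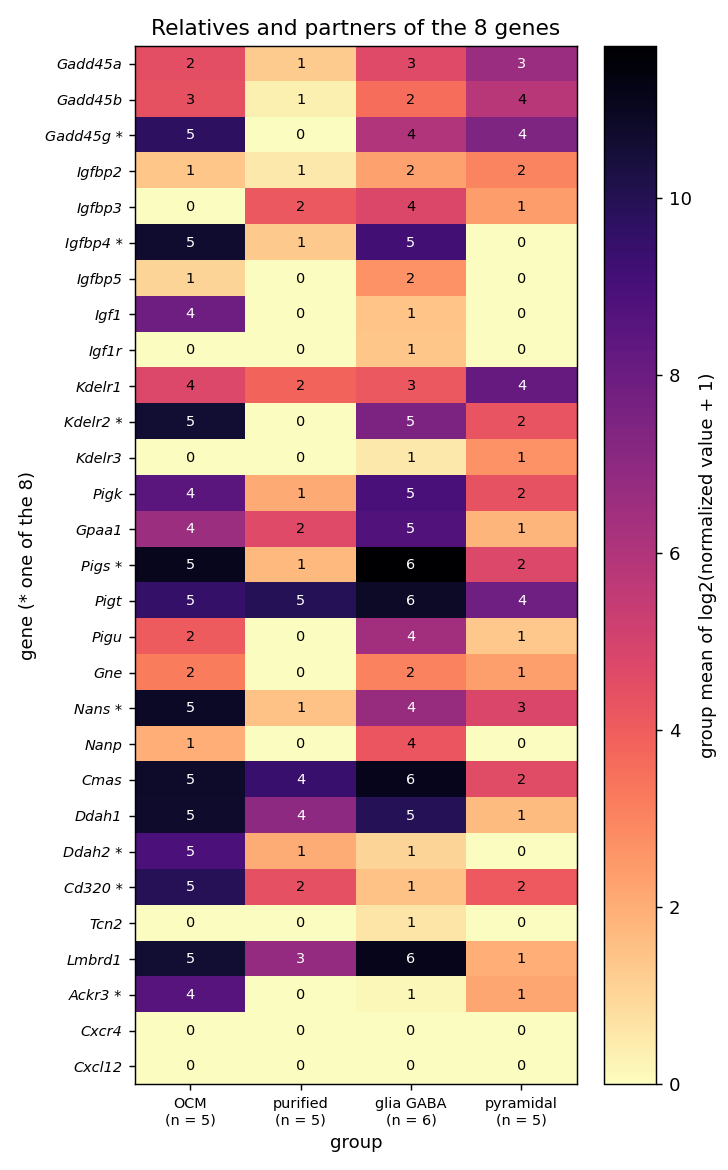
Group means of log2 of the normalized value plus 1 (colour) and number of cells above 0 (digits) for the 8 genes, marked with asterisks, and relatives or partners picked from the lists (vertical axis) in the 4 groups (horizontal axis). Igf1 is above 0 in 4 OCM cells and 1 glia-cultured GABAergic cell, and Cxcr4 and Cxcl12 are at 0 in all cells.

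In the insulin-like growth factor list, Igf1 was the only other gene that could be compared between OCM and purified cells. It was at 764, 378, 0, 678 and 3975 in OCM cells, at 0 in all purified cells and at 368 in 1 of the glia-cultured GABAergic cells, with differences of 7.90 against purified and 6.48 against glia-cultured cells. Igfbp4 and Igf1 were thus both above 0 in 4 of the 5 OCM cells. Igf1 could be compared with purified cells through OCM cells alone, so the sign of that difference was fixed in advance. Of the partners of Ackr3, Cxcl12 and the signalling receptor Cxcr4 were at 0 in all 21 cells. Gnai1, an inhibitory G protein subunit, had a difference of 2.73 between OCM and purified cells, and its relative Gnai2 had -7.81, with 0 reads in all OCM cells and values above 0 in 4 of 5 purified cells. In the cobalamin list, Lmbrd1, a lysosomal cobalamin exporter, had a difference of 3.79 and Abcc1, a transporter, of -2.20, and Tcn2 was at 0 in OCM and purified cells.

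The paralogs of Gadd45g were each above 0 in some OCM cells. Gadd45a had 2254, 0, 0, 2181 and 0 and Gadd45b had 0, 1.02, 917, 0 and 1898 in OCM cells 1 to 5, while in purified cells only cell 1 was above 0, at 71.7 for Gadd45a and 2.47 for Gadd45b. Their log2 differences between OCM and purified cells were 3.21 and 3.99, against 9.71 for Gadd45g. For Gadd45a and Gadd45b the differences were -0.21 and 0.80 against glia-cultured GABAergic cells, and -2.19 and -1.42 against pyramidal cells. Pcna, the DNA polymerase clamp bound by the Gadd45 proteins, had a difference of 5.13 between OCM and purified cells. It had -2.47 against glia-cultured GABAergic cells and -3.50 against pyramidal cells. Gadd45gip1, a mitochondrial ribosome-associated protein, had a difference of -1.34 between OCM and purified cells. Ddah1, the paralog of Ddah2, was above 0 in all 5 OCM cells, 4 purified and 5 glia-cultured GABAergic cells. In the dimethylarginine and nitric oxide list 5 of 11 other genes were higher with OCM than in purified cells by at least 3, among them the arginine transporter Slc7a1 (6.81), and 1 was lower, the arginine methyltransferase Prmt2 (-4.10), with 28.8% and 4.47% over all genes. Against glia-cultured GABAergic cells 0 of 15 were higher by as much and 1 was lower, with a median of -0.99. The shares over all genes were 5.4% and 18.2% there. Nos1, the neuronal nitric oxide synthase, was at 0 in all 21 cells.

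The genes most like each of the 8 over the 21 cells, among 4390 genes above 0 in at least 8 cells, had Pearson correlations of 0.64 to 0.89. Pigs was closest to Gmpr (0.89), a guanosine monophosphate reductase, and Slc30a3 (0.88), the vesicular zinc transporter. Igfbp4 was closest to Cdh13 (0.86), a cadherin, followed by Agtpbp1 (0.84) and Pnoc (0.84), the prepronociceptin gene. Gadd45g was closest to Ublcp1 (0.85) and Kdelr2 to Syt3 (0.85), a synaptotagmin. Ddah2 was closest to Slitrk3 (0.81), a synaptic adhesion protein, and Ackr3 to Slitrk5 (0.74), of the same family. Cd320 was closest to Tmem97 (0.77), the sigma-2 receptor, and Nans to Mras (0.74), a small GTPase. With ranks in place of values, 0 to 2 of the 3 closest genes of each were kept, and with group means taken off 0 to 1, so the order of likeness depends on the measure.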

How the data were processed

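Polyadenylated RNA of single patched neurons was amplified with SMART-Seq v4 and sequenced from Nextera XT libraries, per the labels' protocols. STAR 2.4.0, SAMtools, Picard, FastQC, DESeq2 and rn6 appear in the submitters' processing notes; the sources used here do not name the counter or annotation. The table deposited by the authors, labelled as DESeq2-normalized, holds 1 signal value per gene and cell, never below 0. In each cell 100% of values were whole multiples of 1 step (within 0.05), which gave back reads per cell. No column of values lacked a sample (0). A count test was not run, since it would take cells for replicates.

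For each symbol the row with the highest mean was kept. The group mean of log2 of the value plus a pseudocount of 1 was differenced, over genes above 0 in at least 3 cells compared. Low genes are understated, and zeros weigh heavily. A gene at 0 throughout the other group passes through OCM cells alone, so its difference is positive by construction. Floors are 3 reads over a group, placed in its shallowest cell by step; intervals are 95% and cover counting error only, as no molecular identifiers are mentioned. The text names the 8 genes, list genes without overlap or with the 2 largest and the lowest differences, their paralogs, markers and the 3 genes most like each; Cmas, Tcn2, Nos1, Cxcl12 and Cxcr4 were picked after their values were seen. The genes and lists were chosen with earlier results of these data known. The computation of differences and of lack of overlap was tested on simulated counts. Those counts held few zeros, unlike these data, so the test does not cover values that hinge on zeros. Alternatives were other pseudocounts, scalings, summaries, thinning, cells titled S and leaving out cells; 2 were added after seeing the data. Versions were scipy 1.17.1, pandas 2.3.3, numpy 2.4.6 and matplotlib 3.10.9, under Python 3.11.15.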

Additional observations from a re-analysis of the deposited data

Results flagged for a closer look

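Of 32 groups of cells (8 genes in 4 groups), 10 held a cell far from the others on the log2 scale. Chance flags about 1 in 20 groups of spread values, a rate that does not apply to values full of zeros. In 8 of the 10, 1 cell was above 0 and all others were at 0, which meets the criterion whatever the value. These were Ackr3 in glia-cultured cell 5 (1.07) and in pyramidal cell 2 (1828), Igfbp4 in purified cell 5 (83.9), Nans in purified cell 3 (164), Pigs in purified cell 5 (412), Cd320 in glia-cultured cell 5 (509.9), and Ddah2 in purified cell 4 (1087) and glia-cultured cell 5 (73.6). In the other 2, a single cell was at 0: Ackr3 in OCM cell 4 (0) and Igfbp4 in glia-cultured cell 3 (0). Glia-cultured cell 5 accounts for 3 of the 10 and purified cell 5 for 2.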

How the results depend on the processing

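No paired analysis was possible because the result comes from no test and the numbers only name cells. The median difference of the 8 genes against purified cells was 9.36, and became 6.54 with a pseudocount of 10, 12.02 with 0.1, 9.89 with one upper quartile, 6.64 with the ratio of means, 10.66 with the median over cells, and 8.81 to 9.47 with 1 cell left out. Against pyramidal cells it was 6.34, and became 4.36, 8.33, 7.03, 1.16 and 10.25 in the same order, and 5.58 to 7.45 with 1 cell left out. Against glia-cultured GABAergic cells it was 3.94, and became 2.83, 5.05, 3.93, 1.43 and 1.21 in the same order, 8.74 with cells titled S (1 glia-cultured cell), 7.11 without the cells titled P (added after seeing the data) and 3.28 to 4.62 with 1 cell left out. Genes without overlap numbered 4 to 5, 2 to 4 and 2 to 3 against purified, glia-cultured and pyramidal cells with 1 cell left out. Against glia-cultured cells the number was 1 with one total (0.281% of all genes) or one upper quartile (0.0886%) and 4 with cells titled S (9.37%), and against pyramidal cells 4 with cells titled S (2 pyramidal cells, 6.82%). Scaling to one upper quartile moved the all-gene median from 1.40 to 1.82 against purified and from 1.46 to 1.95 against pyramidal cells; relative to it the 8 genes stood at 8.06 and 5.09, with 7.96 and 4.88 as reported. Reversals were Pigs against glia-cultured cells without OCM cell 2 (-1.12 to 0.073 over cells left out), Igfbp4 there without glia-cultured cell 3 (-0.33 to 2.21) and without the cells titled P (-0.50), Gadd45g against pyramidal cells with the ratio of means (-1.27) and the median over cells (-0.74), and Pigs there with cells titled S (-0.77). Without pyramidal cells 3 and 4, also added then, the median was 6.36 and 3 genes did not overlap (4.55% of all genes). The cause was not tested. Thinning to 1817671 reads kept the direction of all 24 differences, and reads absent from a cell at these depths may still have been present in the neuron.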

Other observations

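In the sialic acid list, 4 of 12 measured genes other than Nans were lower in OCM than in glia-cultured GABAergic cells by at least 3 on the log2 scale and 1 was higher, where 18.2% of all genes were lower and 5.4% higher by as much. The genes named next were picked after their values were seen. The higher one was Neu1, the lysosomal sialidase, with a difference of 3.68. St8sia3 and St8sia5, which add sialic acid to sialic acid, differed by -6.30 and -7.53 between OCM and glia-cultured GABAergic cells. Neu2, a sialidase, had at most 0.509 in OCM cells (1 of 5 above 0) and up to 3696 in glia-cultured GABAergic cells (5 of 6 above 0), a difference of -7.91. In the same comparison Nans had a difference of 4.15. Igfbp3, another binding protein of insulin-like growth factors, was at 0 in all OCM cells, above 0 in 2 purified cells and in 4 glia-cultured GABAergic cells, a difference of -4.76 against the last.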
